A study of Mus musculus with 6 samples.

Results

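Sodium-potassium and calcium pumps were examined through 5 listed genes: the sodium pump beta subunits Atp1b1, Atp1b2 and Atp1b3, the calcium pump of the endoplasmic reticulum Atp2a2, and the calcium pump of the plasma membrane Atp2b1. Every probe set that the platform annotation pairs with 1 of these symbols and no other was taken, which gave 6 probe sets for 4 genes, of 12422 probe sets that are not controls. Atp1b1 and Atp1b2 had a pair of probe sets each, Atp1b3 and Atp2a2 had 1 each, and Atp2b1 had no probe set under its own symbol alone and is not analysed here. The adrenal glands came from 12-week-old male mice of the hypertensive strain BPH and the hypotensive strain BPL, with 3 arrays of each strain and no treatment named in the labels. Biotin-labelled copies of the gland's total RNA were read on Affymetrix mouse arrays. Each strain is a selected mouse line, so every allele that differs between the lines differs between the groups. Whether each array stands for a single mouse is not stated in the labels, and the p-values therefore cover only the spread among these arrays, which may be partly technical.

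The sodium pump moves sodium out of the cell and potassium in, at the cost of ATP. Its beta subunit is a glycoprotein that carries the pump to the membrane and tunes its affinity for potassium. Atp1b1 is the widespread beta subunit, Atp1b2 was first known as an adhesion molecule on glia, and Atp1b3 is found in many tissues. Atp2a2 (SERCA2) fills the calcium store and exists as a cardiac and slow muscle form and as a form present in most cells, while Atp2b1 (PMCA1) pumps calcium out across the plasma membrane. In the adrenal gland, the potassium gradient bears on the membrane potential of aldosterone-making glomerulosa cells. The calcium gradient feeds the calcium signal that releases catecholamines from chromaffin cells.

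RefSeq promoter windows of build GRCm38.p6 were matched by symbol for 3 of the 5 genes, with 5 start sites in all. The 250 bases before the start are shown for Atp1b1 and for the more upstream of the start sites of Atp1b3, because these are the beta subunits whose signals could be tested. Capitals mark the GC box GGGCGG on either strand, and both sequences run 5′ to 3′ along the minus strand, on which both genes lie.
Atp1b1, chr1:164458356-164458605: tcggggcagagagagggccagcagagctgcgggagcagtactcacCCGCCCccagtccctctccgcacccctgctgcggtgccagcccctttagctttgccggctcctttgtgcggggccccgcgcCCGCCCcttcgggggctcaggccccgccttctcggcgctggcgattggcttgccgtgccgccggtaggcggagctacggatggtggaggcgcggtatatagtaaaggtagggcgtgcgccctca
Atp1b3, chr9:96364432-96364681: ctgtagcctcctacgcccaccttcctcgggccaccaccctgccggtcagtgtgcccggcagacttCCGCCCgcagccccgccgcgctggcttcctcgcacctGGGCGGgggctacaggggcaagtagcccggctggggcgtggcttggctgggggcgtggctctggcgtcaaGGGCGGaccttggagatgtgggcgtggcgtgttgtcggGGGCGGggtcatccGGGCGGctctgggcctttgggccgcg

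The Atp1b1 window held 2 GC boxes and was 70.4% G and C, and this Atp1b3 window held 5 and was 73.6% G and C. The window of the other Atp1b3 start site, not shown, held 0 GC boxes and was 76.8% G and C. Of 32851 windows of the same length in the table, 32.74% held at least 1 GC box and 4.09% held 4 or more. Counted on both strands, the other letters searched were TGACGTCA (in 1.55% of all windows), TGACG (17.77%, which also matches inside TGACGTCA), CCAAT (33.85%), TATAAA (12.37%) and TGTTCT (16.08%). The Atp1b1 window held 1 CCAAT, the Atp1b3 window shown held 1 TGACG, and neither held TGACGTCA, TATAAA or TGTTCT. The other Atp1b3 window held none of these letters. These matches describe the letters of the windows, and the arrays do not measure binding.

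None of the members passed the test for a strain difference. Signals were scaled to a common array median and compared as log2(signal + 203.2), and a probe set was called when its adjusted p from limma with Benjamini-Hochberg adjustment was below 0.05. The dimmest 40% of probe sets were not tested. Of the 6 member probe sets 3 were tested, 0 were called by limma and 1, Atp1b3, had an unadjusted p under 0.05. Over all 7454 tested probe sets the share called was 4.11%, made up of 3.18% higher (237) and 0.926% lower (69) in BPH, and 20.6% reached an unadjusted p below 0.05. With the authors' scaling the split was 195 to 99, and after quantile normalization 182 to 89. The strain groups did not overlap for 1 of the 3 tested probe sets (Atp1b3), where 27.6% of all tested probe sets did not overlap. They also did not overlap for 1 of the 3 untested (Atp1b2), and the share over all untested probe sets was not counted. With so few members, none of these shares sets them apart from other genes.

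**Figure D1:**
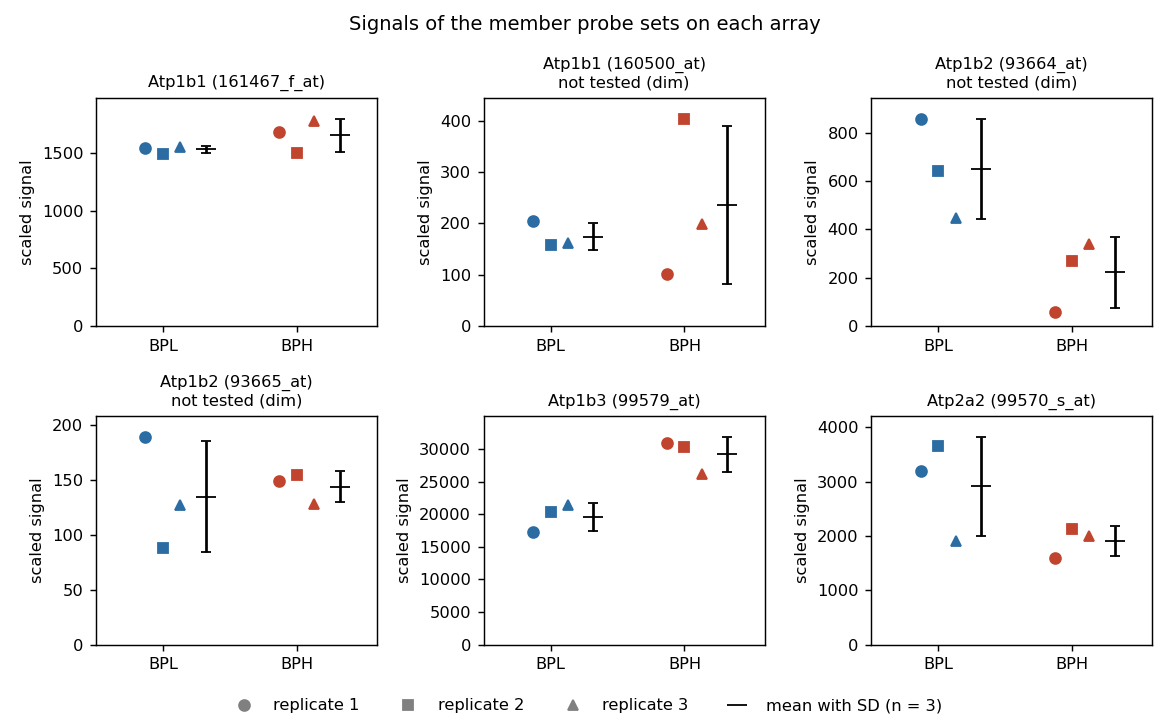
Scaled signal (linear axis, each panel with its own range) of the 6 member probe sets on the 3 BPL arrays (blue) and the 3 BPH arrays (red), with the symbol shape giving the replicate and black bars the mean with SD. All 3 BPH arrays lie above all 3 BPL arrays for Atp1b3 and below them for the Atp1b2 probe set 93664_at, and the strains overlap in the other 4 panels.

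Atp1b3 had the clearest separation among the tested members. On probe set 99579_at the BPL replicates 1, 2 and 3 read 17235, 20299 and 21331. In BPH replicates 1, 2 and 3 the signals were 30992, 30380 and 26129. Every BPH array was thus above every BPL array, and the lowest BPH signal came from replicate 3. The means were 19621 ± 2131 in BPL and 29167 ± 2649 in BPH (SD, n = 3). The log2 difference of BPH minus BPL was 0.57 ± 0.16 (SE, 95% interval 0.20 to 0.93), which is 1.48-fold, and it did not pass (limma adjusted p = 0.097). All tested probe sets together had a median log2 difference of 0.08 on this scale. With the authors' scaling that median was -0.02 and the Atp1b3 difference 0.45 (limma adjusted p = 0.10).

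The Atp1b3 difference kept its sign under all 17 alternative settings, between 0.42 after quantile normalization and 0.65 without BPH replicate 3. It passed in 1 of them, when the dimmest 60% of probe sets were left out and fewer p-values were adjusted (limma adjusted p = 0.047). Over the other settings the limma adjusted p ran up to 0.63, the value with BPL replicates 1 and 2 left out together, where the difference was 0.44. Chromaffin cell markers were also higher in BPH. Of 10 tested chromaffin cell markers 5 were called higher in BPH and 0 lower, where 3.18% of all tested probe sets were called higher. The summed signal of all 12 measured chromaffin cell markers ran from 166341 to 264385 in BPL and from 296565 to 392649 in BPH. None of 8 tested cortex markers was called by limma on its brightest probe set (2 had an unadjusted p under 0.05), while another probe set of Nr5a1 was called higher, and their summed signal ran from 551176 to 719431 in BPL and from 682909 to 798028 in BPH. The part of cell makeup in the Atp1b3 difference was not tested, and in whole-gland RNA fewer cells of a type and less RNA per cell cannot be told apart.

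Atp1b1 had nearly the same signal in both strains. Its probe set 161467_f_at read 1545, 1493 and 1552 in BPL replicates 1, 2 and 3. It read 1683, 1495 and 1777 in BPH replicates 1, 2 and 3. The strains overlapped, with BPH replicate 2 within the BPL range. The log2 difference was 0.09 ± 0.14 (SE, limma adjusted p = 0.75), with a 95% interval from -0.24 to 0.43, so differences within those bounds cannot be told from none here. With the authors' own scaling it was -0.0085 (limma adjusted p = 0.98). In Affymetrix naming the suffix of this probe set marks probes that can match a family of related sequences. The other Atp1b1 probe set, 160500_at, was too dim to be tested, at 204.5, 157 and 161 in BPL and 102, 404 and 199 in BPH, with BPH holding both the lowest and the highest array.

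Atp1b2 was dim on both of its probe sets, and neither was tested. Probe set 93664_at read 857, 641 and 445 in BPL replicates 1, 2 and 3 and 57.1, 271 and 339 in BPH replicates 1, 2 and 3. All BPL arrays were above all BPH arrays, but the mean over the 6 arrays lay under the limit for testing, which corresponded to a signal of about 617. The means were 648 ± 206 in BPL and 222 ± 147 in BPH (SD, n = 3). With no filter on dim probe sets the log2 difference was -1.04 ± 0.31 (SE, limma adjusted p = 0.21). The other probe set, 93665_at, read 189, 88.5 and 127 in BPL and 150, 155 and 128 in BPH. There the strains overlapped, and with no filter the log2 difference was 0.05 ± 0.17 (limma adjusted p = 0.93). The probe sets of Atp1b2 therefore did not show the same pattern. The summed signals of markers of glia and Schwann cells overlapped between the strains. The sum of 6 markers ran from 10742 to 12622 in BPL and from 10003 to 12539 in BPH. The overlap came from BPH replicate 3 alone, as BPH replicates 1 and 2 gave 10481 and 10003. Of the BPH replicate 3 sum, 2155 was from Fabp7, which was too dim to be tested. Fabp7 read 88.4, 91.2 and 82.1 in BPL and 56.6, 360 and 2155 in BPH. Of the 5 tested markers, 0 were called by limma (1 had an unadjusted p under 0.05). That 1 was S100b, a calcium-binding protein of glia named here after its values were seen, at 936, 926 and 684 in BPL and 666, 461 and 603 in BPH. Its groups did not overlap. Its log2 difference was -0.43 ± 0.18 (SE, limma adjusted p = 0.22), the same sign as that of 93664_at. On their brightest probe sets 2 of the 5 tested markers, Mbp (0.08) and Gfap (0.12), had the opposite sign. The part of glial cells in the Atp1b2 values was not tested.

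Atp2a2 differed mainly in 2 of the BPL arrays. Its only probe set, 99570_s_at, carries a suffix that in Affymetrix naming marks probes able to match several transcripts, and such matching was not tested. Probe set 99570_s_at read 3191, 3652 and 1903 in BPL replicates 1, 2 and 3. In BPH replicates 1, 2 and 3 it read 1595, 2138 and 1993. BPL replicate 3 lay within the BPH range, and only BPL replicates 1 and 2 stood above it. The BPL mean was 2915 ± 907 and the BPH mean 1909 ± 281 (SD, n = 3). The log2 difference of -0.53 ± 0.24 (SE, 95% interval -1.08 to 0.03) did not pass (limma adjusted p = 0.26). It was -0.79 without BPL replicate 3 (limma adjusted p = 0.060), -0.35 without BPL replicate 2 (limma adjusted p = 0.51) and -0.0047 with BPL replicates 1 and 2 left out together (limma adjusted p = 1). In that last comparison the lone BPL array was assumed to vary like the BPH arrays.

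The BPL arrays with high Atp2a2 signals were also those with high skeletal muscle signals. Summed over 17 skeletal muscle markers, BPL replicates 1, 2 and 3 gave signals of 182915, 438295 and 34859, and the BPH arrays gave 9254 to 10082. Of the 15 tested, 10 were called lower in BPH and 0 higher, where 0.926% of all tested probe sets were called lower. Slow muscle fibres use Atp2a2, and the list holds 3 genes known from slow fibres. These 3 were picked for mention after the values of the list were known. On its brightest probe set the slow myosin heavy chain Myh7 read 5738, 14288 and 1070 in BPL replicates 1, 2 and 3 and 140, 301 and 327 in BPH, while its dim other probe set overlapped between the strains, at 1626, 319 and 395 in BPL and 308, 603 and 395 in BPH. The slow myosin light chain Myl2 read 7418, 20818 and 755 in BPL and 85.7, 73.2 and 28.3 in BPH. The slow troponin Tnnt1 read 4624, 4293 and 2845 in BPL and 1729, 1687 and 1693 in BPH on its brightest probe set. BPL replicate 1 was the highest there. Its other probe set read 4299, 14631 and 268 in BPL and 320, 234 and 225 in BPH. On that one the strains overlapped, and it was not called (limma adjusted p = 0.18). On these brightest probe sets Myh7, Myl2 and Tnnt1 were called lower in BPH, with log2 differences of -3.41 ± 0.73, -4.34 ± 0.91 and -1.09 ± 0.20 (SE, limma adjusted p = 0.039, 0.036 and 0.023). Both Myh7 probe sets carry the suffix f_at, for probes that can match a family of related sequences. Lower signals were not particular to these genes: the 15 tested muscle markers had a median log2 difference of -3.41 and ran from -6.47 to 0.03. The part of muscle tissue in the Atp2a2 values was not tested: leaving out BPL replicates 1 and 2 removes the arrays with high Atp2a2 signals themselves. Dim probe set 93664_at of Atp1b2 was also highest in BPL replicates 1 and 2, but with replicate 1 above replicate 2, unlike the muscle sums. Its BPL replicate 3, at 445, was above every BPH array too, and the part of muscle tissue in this probe set was not tested.

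**Figure D2:**
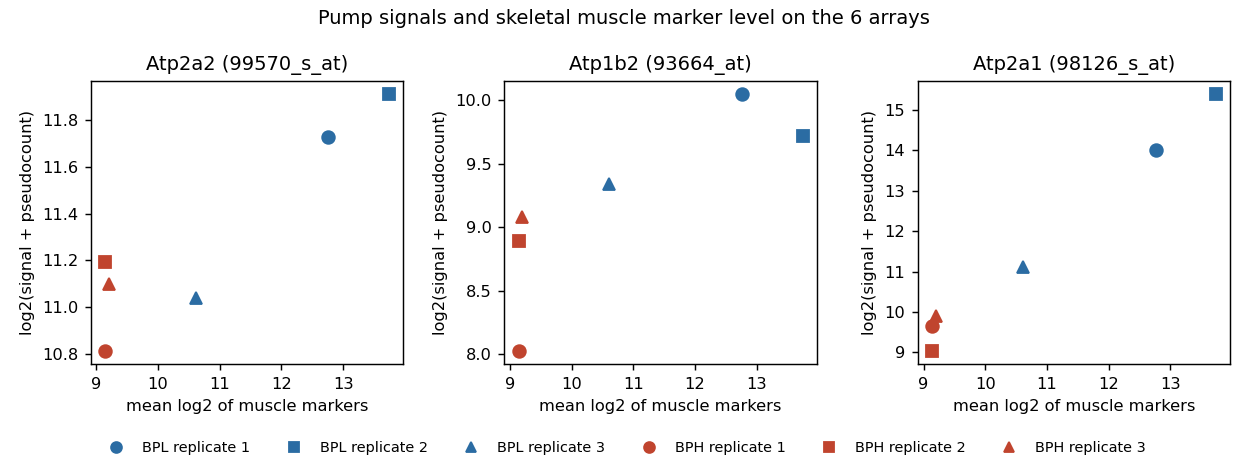
Log2 signal (with the pseudocount of 203.2) of Atp2a2, of the untested Atp1b2 probe set 93664_at and of the muscle pump Atp2a1 against the mean of 17 skeletal muscle markers on the same scale, of which Atp2a1 is one, with 1 point per array. BPL replicates 1 and 2 stand at the right at 12.76 and 13.74, BPL replicate 3 lies at 10.61, and the 3 BPH arrays lie together at 9.14 to 9.20.

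Among the other pumps and their regulators, Atp2a1 alone was called. Atp2a1 (SERCA1) is the calcium pump of fast skeletal muscle fibres. Its probe set 98126_s_at read 16222, 43040 and 2019 in BPL replicates 1, 2 and 3 and 605, 319 and 745 in BPH, and its probe set 162223_f_at read 10198, 32272 and 1055 in BPL and 41.3, 372 and 67.3 in BPH. The suffixes of both, s_at and f_at, likewise mark probes that can match several transcripts. The 2 probe sets were lower in BPH by the log2 differences -3.98 ± 0.89 (limma adjusted p = 0.047) and -4.48 ± 0.99 (limma adjusted p = 0.044). Their spread in BPL was as large as the BPL mean, at 20427 ± 20831 and 14508 ± 16049 (SD, n = 3). Both calls were lost when any single array other than BPL replicate 3 was left out (limma adjusted p from 0.072 to 0.17 for 98126_s_at and from 0.067 to 0.14 for 162223_f_at). Both were also lost with the authors' scaling (limma adjusted p = 0.064 and 0.061), after quantile normalization (0.071 and 0.069), with a floor in place of the pseudocount (0.060 and 0.060), with no filter (0.11 and 0.11) and with a trended and robust variance (0.18 and 0.18). With BPL replicates 1 and 2 left out together the difference of 98126_s_at was -1.59 (limma adjusted p = 0.10).

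The remaining calcium pumps showed small differences that did not pass. Atp2a3 (SERCA3), a calcium store pump of blood and endothelial cells among others, read 2969, 3199 and 2962 in BPL and 3086, 3140 and 3582 in BPH on its brightest probe set, 103935_at. Its log2 difference was 0.09 ± 0.15 (SE, limma adjusted p = 0.75), and it was -0.01 with the authors' scaling. Atp2c1, the calcium and manganese pump of the Golgi, had a log2 difference of 0.23 ± 0.16 on probe set 95897_at (SE, limma adjusted p = 0.45). Atp2b2, a plasma membrane pump known from neurons, was too dim to be tested, at 410, 292 and 260 in BPL and 286, 204 and 221 in BPH.

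Of the related proton-potassium pump of the stomach, 2 subunits had a probe set. Atp4a had a log2 difference of -0.22 ± 0.16 (SE, limma adjusted p = 0.45), and Atp4b was too dim to be tested. The FXYD proteins are small membrane partners that tune the sodium pump. Fxyd5 read 1190, 1204 and 1484 in BPL and 2305, 2571 and 1652 in BPH, so the strains did not overlap, and its log2 difference was 0.65 ± 0.19 (SE, limma adjusted p = 0.11). It passed only when the dimmest 60% of probe sets were left out (limma adjusted p = 0.049). Fxyd1 (phospholemman) had a log2 difference of 0.24 ± 0.21 (SE, limma adjusted p = 0.55), and Fxyd2, the gamma subunit known from the kidney, was untested at 329, 176 and 548 in BPL and 392, 1329 and 1926 in BPH. Kidney tubule markers overlapped between the strains as well: the summed signal of 7 ran from 1839 to 3579 in BPL and from 1953 to 5867 in BPH. Of these 7 only 1 was tested, and it was not called. The highest sum, in BPH replicate 2, was mostly the untested Kap. Kap read 767, 182 and 86.6 in BPL and 94.3, 3564 and 767 in BPH. The part of kidney tissue in the Fxyd2 values was not tested. Fxyd3 and Fxyd7 were untested, with signals from 124 to 246 and from 132 to 251 over the 6 arrays.

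**Figure D3:**
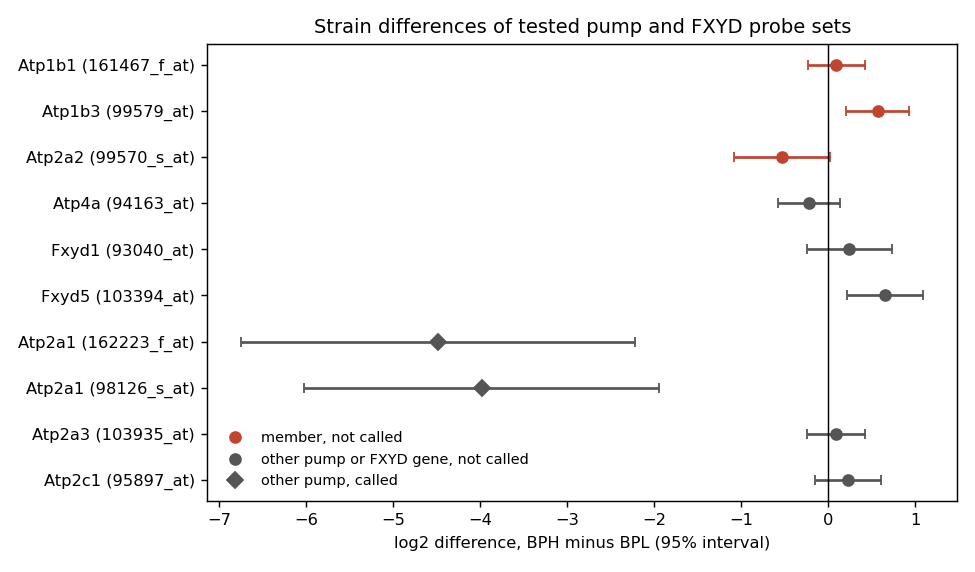
Log2 difference of BPH minus BPL (with its 95% interval from limma) for the 3 tested member probe sets (red) and the 7 tested probe sets of other pumps and FXYD genes (grey). The 2 Atp2a1 probe sets, drawn as diamonds, are called and lie at -4.48 and -3.98, and the other 8 lie between -0.53 and 0.65 and are not called.

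Over 8 lists of ion pumps, exchangers, channels, calcium-binding proteins and kinases, 44 genes were tested on their brightest probe set. Of these 44, 0 were called higher and 1 was called lower (Atp2a1), where 4.11% of all tested probe sets were called in either direction. Their median log2 difference was 0.06, against 0.08 for all tested probe sets, and 15 of the 44 had an unadjusted limma p under 0.05, a threshold that 20.6% of all tested probe sets reached. The 8 tested calcium store proteins had a median of -0.25 and differences from -2.96 to 0.17, with 0 called by limma and 3 under an unadjusted p of 0.05. Those 3 are Ryr1, Casq1 and Hrc, the calcium release channel, the calcium buffer and a calcium-binding protein of the muscle store, at -2.96, -1.78 and -1.20, and Ryr1 missed the threshold narrowly (limma adjusted p = 0.0503). They were picked for mention after their values were seen, and Ryr1 and Casq1 are also on the list of skeletal muscle markers. Each was highest in BPL replicate 2 and next in BPL replicate 1.

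The other lists had 0 genes called by limma. Of 5 tested exchangers and cotransporters, with a median log2 difference of 0.26, 1 had an unadjusted p under 0.05. This was Slc9a3r1, a scaffold protein of the sodium-proton exchanger, at 0.89 ± 0.26 (SE, limma adjusted p = 0.11). Of 10 tested sodium, potassium and calcium channels, with a median of 0.28 and a range from -0.39 to 0.62, 5 were under an unadjusted p of 0.05, again beside 20.6% of all tested probe sets. Kcnk1 (0.54), Kcnk2 (0.62), Cacna1c (0.54) and Cacna2d1 (0.40) were higher in BPH and Kcnj8 (-0.39) was lower, with limma adjusted p from 0.086 to 0.23. The 9 tested calmodulin and calcium-dependent genes had a median of -0.12, a range from -1.94 to 0.48 and 3 under that threshold. These 3 were S100b, the kinase subunit Camk2b at -1.06 (limma adjusted p = 0.17) and Pvalb, the parvalbumin of fast muscle fibres, at -1.94 (limma adjusted p = 0.093). Pvalb read 21455, 47280 and 7634 in BPL replicates 1, 2 and 3 and 5570, 5186 and 4378 in BPH, with the same order of BPL arrays as the summed muscle markers. Camk2b and S100b did not have that order. Camk2b read 1578.5, 1667 and 2303 in BPL and 1332, 289 and 1007 in BPH, with BPL replicate 3 the highest. S100b was highest in BPL replicate 1. The 6 tested kinases and enzymes acting on sodium transport had a median of 0.25 and 1 under that p, Sgk1 at 0.55 (limma adjusted p = 0.16). Slc9a3r1, Camk2b, Pvalb, Sgk1 and the channels were named after their values were seen.

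**Figure D4:**
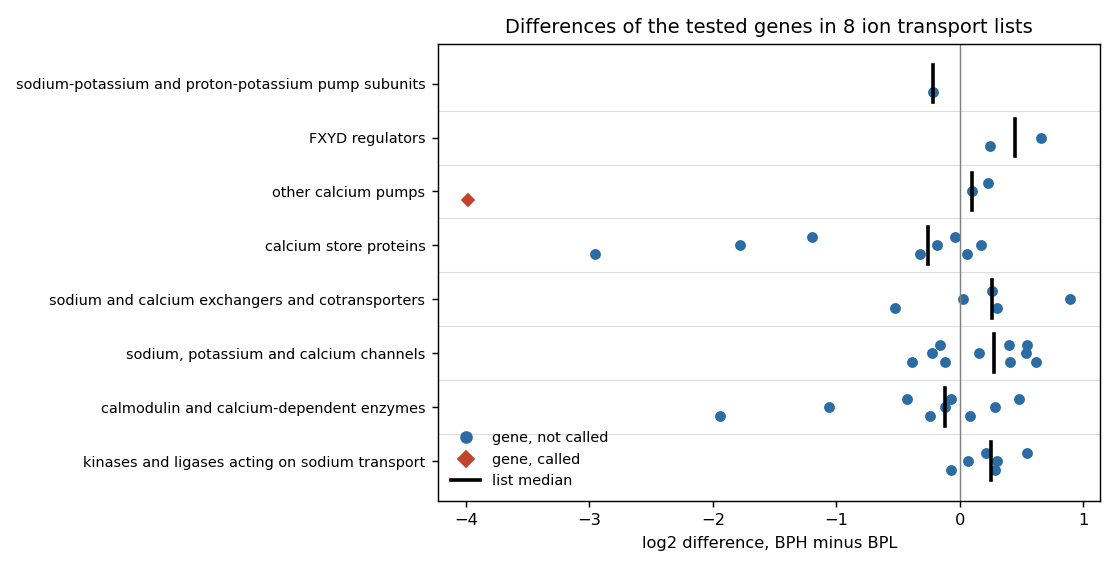
Log2 difference of BPH minus BPL for each of the 44 tested genes in the 8 lists, 1 point per gene on its brightest probe set, with a black bar at each list median. Atp2a1 is called (red diamond, at -3.98), and the points below -1 in the calcium store list are Ryr1, Casq1 and Hrc.

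The probe sets most like each member over the 6 arrays were listed by Pearson correlation of log2 signals, as a description of these arrays that all share the strain difference. For Atp1b3 the highest were Actr3 (r = 0.999), Gsk3a (0.997) and Mcl1 (0.997), and 718 of 6627 compared probe sets exceeded 0.9. For Atp1b1 the highest were Rida (0.989), Ipo7 (0.987) and Tm9sf2 (0.967), with 32 above 0.9. For Atp2a2 they were Clec16a (0.988), Snrp1c-ps2 (0.984) and Thap4 (0.979), with 61 above 0.9. For the untested Atp1b2 probe set 93664_at they were Spryd4 (0.978), Tenm4 (0.977) and Slc25a1 (0.973), with 46 above 0.9. Of these 12 neighbours Mcl1, a survival protein of the Bcl2 family, was called higher in BPH, at a log2 difference of 1.15 (limma adjusted p = 0.028).

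**Figure D5:**
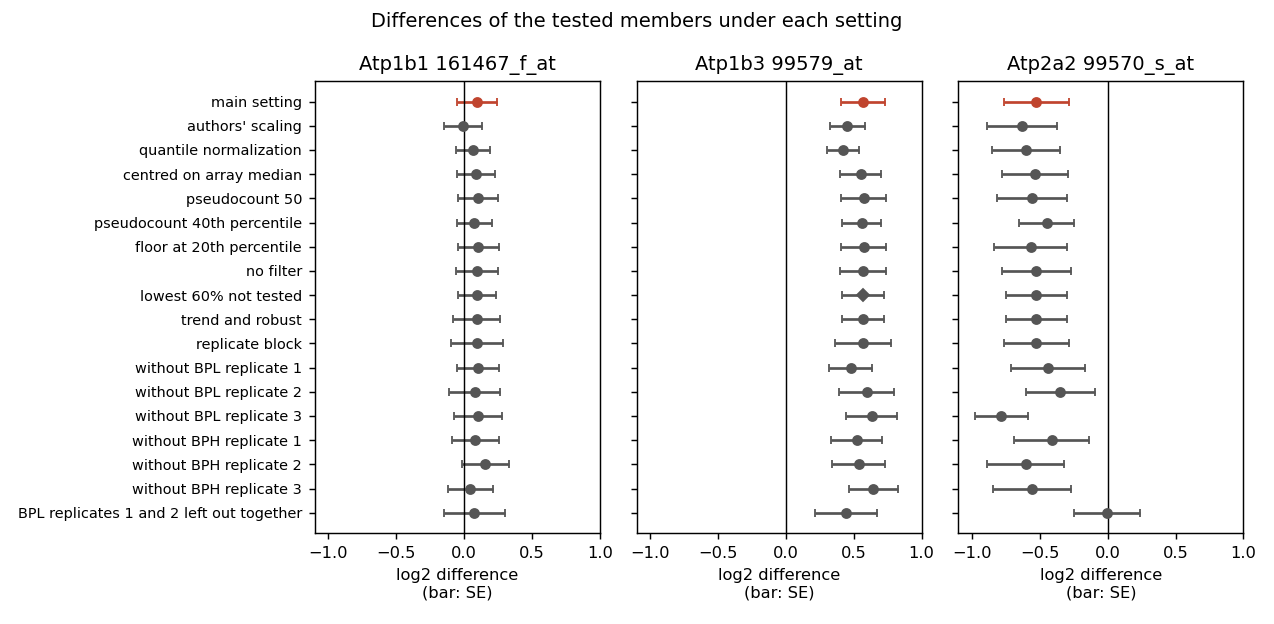
Log2 difference of BPH minus BPL with its SE for the 3 tested member probe sets under the main setting (red) and 17 alternatives (grey). Atp1b3 stays above 0 throughout and passes in 1 setting (diamond), Atp1b1 stays near 0, and Atp2a2 runs from -0.79 without BPL replicate 3 to -0.0047 with BPL replicates 1 and 2 left out together.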

How the data were processed

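The authors deposited linear intensity values of each probe set on each array, for which the submitters' processing notes name MAS5. Its version, settings and target value are not stated in those notes, and no detection calls entered the analysis. Array medians over the 12422 probe sets other than the 66 controls differed by 21%, above a tolerance of 10%, and every array was therefore rescaled to the mean median of 1040. Dim differences are understated by the pseudocount of 203.2 (the 20th percentile). The 40% with the lowest mean were not tested. limma (version 3.58.1, R 4.3.3) compared the strains by lmFit and eBayes, 2-sided, with Benjamini-Hochberg adjustment over 7454 probe sets and a threshold of 0.05. Array number, 3 per strain, limits the precision. At most 1 value was identical between any pair of arrays. Named were all member probe sets, called list genes, the other pumps and FXYD genes, and 3 neighbours per member. List genes were matched by symbol or gene ID, and counts use each gene's brightest probe set. Members and lists were chosen with earlier results of these data known. Alternatives were other scalings, pseudocounts, filters, variance models, a replicate block and arrays left out. On simulated data for this comparison over 7454 probe sets, limma recovered 51% of 2-fold and 91% of 4-fold changes.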

Additional observations from a re-analysis of the deposited data

How the results depend on the processing

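The differences of Atp1b3 and Atp2a2 kept their sign under all 17 alternatives. One member probe set, Atp1b3, was called with the dimmest 60% not tested, which leaves fewer tests to adjust, and 0 were called by limma under the other 16. Atp1b1 turned to -0.0085 with the authors' scaling, and Atp2a3 to -0.0146 with it and to -0.0024 after quantile normalization. Of all probe sets, 306 were called, 127 with no filter, 101 to 375 without one array and 87 with BPL replicates 1 and 2 left out together. Calls among the ion lists, counted on each gene's brightest probe set, numbered 1 (Atp2a1). The 1 call was another gene with a pseudocount of 50 (Ryr1, limma adjusted p = 0.049), a trended and robust variance (Cacna1c, 0.048) and without BPL replicate 1 (Slc9a3r1, 0.011). The ion lists had 0 calls by limma with the authors' scaling, quantile normalization, centring, the floor, no filter or both BPL replicates left out. The other Atp2a1 probe set, 162223_f_at, is outside these counts and passed with centring (limma adjusted p = 0.049) and a pseudocount of 50 (0.046). The ion lists had 5 calls with the dimmest 60% not tested (Atp2a1, Fxyd5, Pvalb, Slc9a3r1 and Cacna1c). Calls numbered 3 with the replicate block (Atp2a1, Ryr1 and Pvalb) and 0 to 5 without one array. Of calls over all probe sets 77.5% were higher in BPH, against 66.3% with the authors' scaling and 67.2% after quantile normalization, where the median difference was -0.02 and 0. With the replicate block 0 member probe sets were called by limma, and 239 probe sets in all. Arrays with the same number did not deviate together (correlations -0.06, -0.05 and -0.18), and 0 of 6 correlated best with their own number. Brightness limits what can be said of Atp1b2 and of one Atp1b1 probe set. The cause of the changed calls was not tested. Averaging a gene's tested probe sets gave no value, because no member had more than 1 tested.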
